A study of Mus musculus with 16 samples.

Results

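The tumor necrosis factor (TNF) superfamily was followed by RNA sequencing through 3 segments of the chronically injured mouse spinal cord and through uninjured cord. Genes were taken by name: every row whose symbol is Tnfsf or Tnfrsf with a number, and Tnf, Lta, Ltb, Cd40, Cd40lg, Fas, Fasl, Cd27, Cd70 and Ltbr. Of the genes that fit this pattern, 2 receptor genes are not reported here. That gave 41 of the 43346 rows of the count table, made up of 17 ligands, 22 receptors and 2 other transcripts of the Tnfsf12 and Tnfsf13 locus. Of these, 38 had enough counts to be tested, among 23769 tested rows in all; Cd40lg, Tnfsf4 and Tnfsf15 did not. All mice were female, aged 12 weeks, of the strain that the labels spell C57BL7J. The descriptions of all libraries in all groups begin with WT, and no other allele or agent is named. The injured groups had a contusion and compression of the lumbar cord at L1/L3 with an 8 g Fejota clip and were collected at 30 days. Their groups are the epicenter, the 3 mm rostral to it (above) and the 3 mm caudal to it (below), with 4 libraries each. The 4 uninjured libraries carry the same time label and each hold the whole 9 mm of the matching levels as 1 piece, so this control pools levels that the injured cord gives separately. Neither the animal behind each library nor the segments cut from the same cord are given in the labels. The p-values here therefore rest on the spread among these libraries, and part or all of that spread may be technical.

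Ligands of this family are mostly membrane-anchored trimers, some of them released by proteases, and they act by clustering receptors on a neighbouring cell. Receptors with an intracellular death domain can start apoptosis or necroptosis, whereas receptors that bind TRAF adaptors drive NF-kappaB and survival or inflammatory programmes, and decoy receptors bind ligand without passing on a signal. In injured nervous tissue, microglia and infiltrating macrophages are known sources of TNF, and several costimulatory pairs of the family act between lymphocytes and antigen-presenting cells.

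Library totals were 65.6 to 90.0 M counts. A gene with 0 counts can then have had up to 3 by counting error (95% confidence), which stood for 0.0316 to 0.0485 counts per M library counts (CPM) in a single library. Markers of neurons, oligodendrocytes and astrocytes were counted in all 16 libraries, in keeping with the label spinal cord. The summed level of 8 neuronal markers was 1859.7 to 3312 at the epicenter, 5121 to 5498 above, 984 to 4204 below and 5550.1 to 5804 in uninjured cord (CPM). The lowest value, 984, was that of the library below 3. The summed level of 8 phagocyte markers was 3321 to 5405 at the epicenter, 429 to 516 above, 591 to 8437 below and 116 to 141 in uninjured cord (CPM). The highest value was again that of below 3. Of the tested phagocyte markers 8, 7 and 8 of 8 were called higher at the epicenter, above and below than in uninjured cord, and of the neuronal markers 7, 0 and 4 of 8 were called lower. Results that rest on below 3 are given with and without it. The library above 1 also stood apart from its group, with 323 CPM of 6 fibroblast markers and 337 CPM of 6 Schwann cell markers, against 69.0 to 72.8 and 68.5 to 70.4 CPM in the other 3 libraries.

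At the epicenter most tested members rose: 30 of 38 members were called higher and 3 lower than in uninjured cord (edgeR quasi-likelihood test, Benjamini-Hochberg adjusted p under 0.05 over all tested rows). Over all 23769 rows, 31.9% were called higher, 29.3% lower and 61.3% in either direction. The median log2 fold change of the 38 members was 1.67, where that of all rows was 0.00. Ligands contributed 11 of 14 tested as higher and 0 as lower, receptors 17 of 22 as higher and 3 as lower. Below the injury 28 members were called higher and 2 lower, with 23.6%, 15.7% and 39.3% of all rows higher, lower and in either direction. The members' median there was 1.41. Above the injury only 5 members were called higher and 0 lower, with 3.09%, 0.446% and 3.54% of all rows. The members' median there was 0.45, and 15 members were at an unadjusted p under 0.05. In a test of any difference among the 4 groups, 32 of 38 members were called, with 61.5% of all rows. The comparisons with uninjured cord share its 4 libraries. In bulk tissue, fewer cells of a type and less RNA per cell cannot be told apart. The phagocyte and neuronal sums given earlier moved with these groups, and their part in the members' results was not tested.

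**Figure D1:**
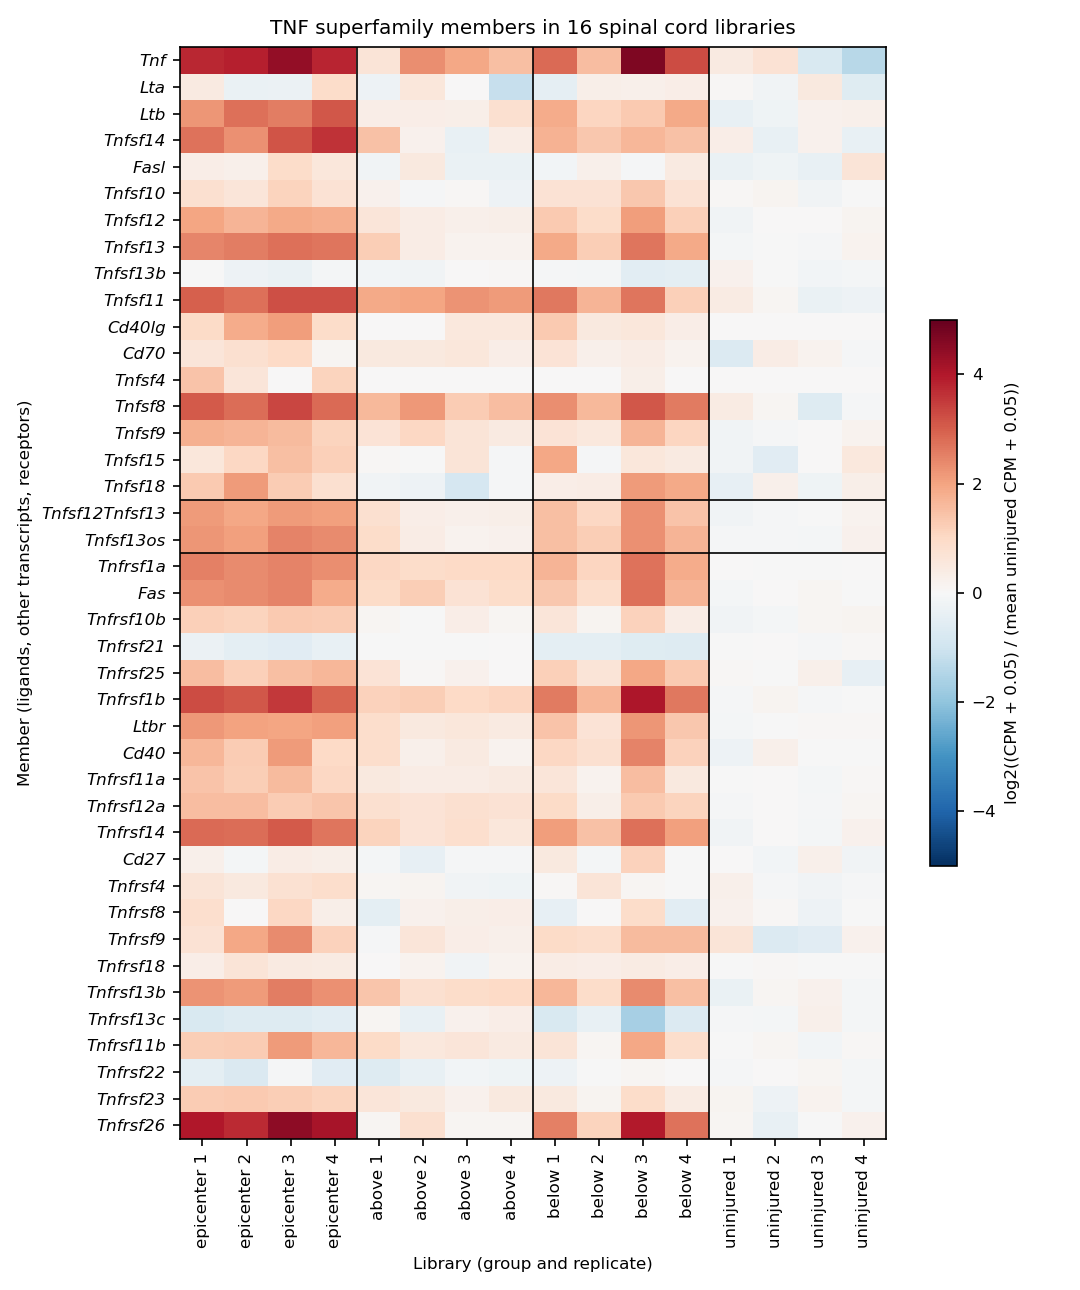
Level of each of the 41 members (rows: ligands, other transcripts, receptors) in each of the 16 libraries (columns), as log2 of (CPM + 0.05) over (mean uninjured CPM + 0.05), in red above and in blue below the uninjured mean. The 4 epicenter columns are red for most members, the above columns are pale except for a few members such as Tnfsf11 and Tnfsf8, and below 3 is the darkest of the below columns in most rows.

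The heat map of all members by library also shows that single libraries led their groups. Epicenter 3 held the highest level of its group in 22 of the 38 tested members. Below 3 held the highest level of its group in 28 of them, and below 2 the lowest in 26. Group means were ordered epicenter, below, above and uninjured cord, from highest to lowest, in 26 of 38 members. The exceptions were Lta, Fasl, Tnfsf18 and Tnfrsf4, with uninjured cord ahead of the segment above, and Tnfsf10 and Cd27, highest below the injury. Cd70 and Tnfrsf8 were higher above than below, and Tnfsf13b, Tnfrsf21, Tnfrsf13c and Tnfrsf22 had their lowest mean below or at the epicenter. Many neighbouring means in these orders were not called different: epicenter and below were in 9 of 38 members, above and below in 20, and above and uninjured in 5. Neither the ranks of single libraries nor the orders of means were counted over all rows.

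**Figure D2:**
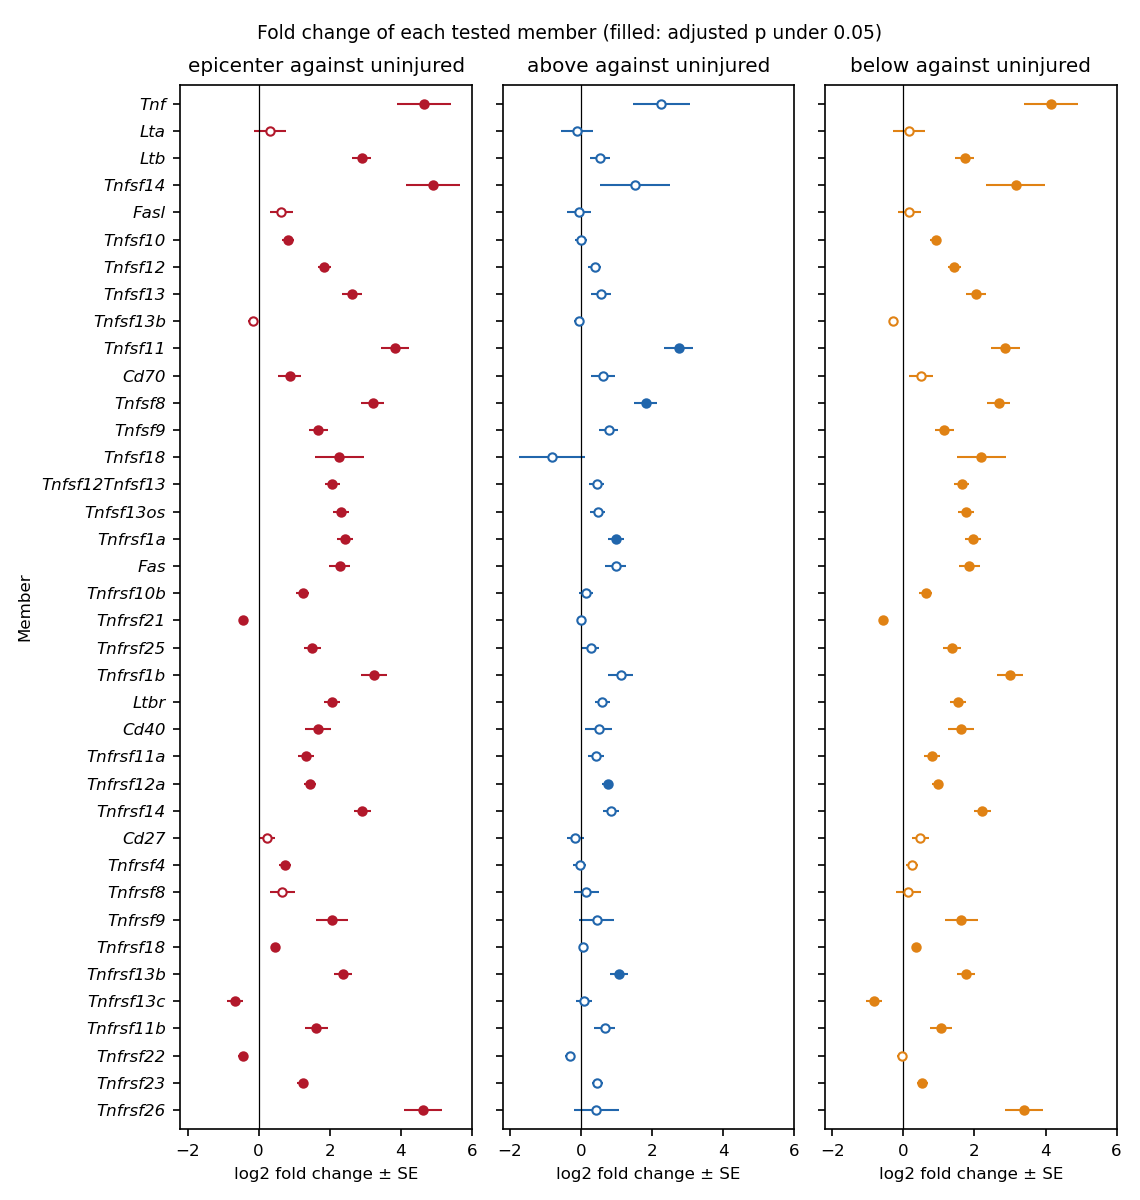
Log2 fold change ± SE of each of the 38 tested members (rows) at the epicenter, above and below, each against uninjured cord (edgeR, n = 4 libraries a group), with filled points for adjusted p under 0.05. The left and right panels are filled for most members and the middle panel is filled for 5, Tnfsf11, Tnfsf8, Tnfrsf1a, Tnfrsf12a and Tnfrsf13b.

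Tnf itself, the family's founding inflammatory cytokine (ENSMUSG00000024401, chr17:35199381-35202007, minus strand), measured 1.74, 1.88, 2.67 and 1.75 CPM at the epicenter, 0.155, 0.597, 0.444 and 0.319 CPM above it and 0.889, 0.327, 3.30 and 1.19 CPM below it, against 0.129, 0.166, 0.0258 and 0 CPM in uninjured cord. All 4 epicenter libraries were above all 8 libraries of the above and uninjured groups, and the above and uninjured groups overlapped by 1 library. Below 3 exceeded every epicenter library. Tnf rose by a log2 fold change of 4.65 ± 0.76 at the epicenter (edgeR adjusted p = 0.000104) and by 4.15 ± 0.76 below (adjusted p = 0.000643), with only 22 counts over all uninjured libraries. The value below was 3.31 without below 3. Without uninjured 2 the values were 5.33 at the epicenter and 4.83 below. Above, its fold change of 2.26 ± 0.81 did not pass (edgeR adjusted p = 0.176), although without below 3, which shares the estimate of spread, the same value had an adjusted p of 0.0323.

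Tnf lies between the genes of both lymphotoxins on chromosome 17 (build mm10 of the files): Ltb (ENSMUSG00000024399, chr17:35194439-35196320, plus strand) 3.06 kb to one side and Lta (ENSMUSG00000024402, chr17:35203165-35205351, minus strand) 1.16 kb to the other. Ltb, the membrane anchor of the lymphotoxin heterotrimer, had 1.42 to 2.66 CPM at the epicenter, 0.342 to 0.502 CPM above it and 0.621 to 1.11 CPM below it, against 0.194 to 0.330 CPM in uninjured cord. The epicenter libraries lay above those of every other group. Ltb rose by 2.89 ± 0.27 at the epicenter and 1.72 ± 0.27 below on the log2 scale (edgeR adjusted p = 8.37e-07 and 0.000171). Lta, the partner of Ltb in that heterotrimer, had 0.184 to 0.505 CPM at the epicenter, 0.0799 to 0.378 CPM above it and 0.163 to 0.320 CPM below it, against 0.143 to 0.361 CPM in uninjured cord. Its 4 groups overlapped throughout. Its log2 fold change at the epicenter was 0.32 ± 0.44 (edgeR adjusted p = 0.546). Because Tnf and Ltb were called and the adjacent Lta was not (the difference between genes was not tested), the 250 bases before each RefSeq start are printed here from RefSeq's promoter table (GRCm38.p6, the assembly behind mm10), read 5′ to 3′ along each gene's own strand: Ltb at chr17:35194257-35194506, plus strand; Tnf at chr17:35202008-35202257, minus strand; and Lta at chr17:35205352-35205601, minus strand. Capitals mark a match to the NF-kappaB consensus, searched on both strands with overlapping matches kept.
Ltb: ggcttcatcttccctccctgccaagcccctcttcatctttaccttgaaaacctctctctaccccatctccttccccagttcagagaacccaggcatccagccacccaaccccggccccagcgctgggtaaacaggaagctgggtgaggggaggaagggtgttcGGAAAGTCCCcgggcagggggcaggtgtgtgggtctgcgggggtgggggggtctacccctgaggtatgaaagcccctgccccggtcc
Tnf: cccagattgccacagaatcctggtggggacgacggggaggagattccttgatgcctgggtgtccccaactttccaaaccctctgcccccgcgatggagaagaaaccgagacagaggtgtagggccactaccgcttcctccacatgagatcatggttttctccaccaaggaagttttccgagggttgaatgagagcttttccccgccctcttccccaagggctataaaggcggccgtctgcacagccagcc
Lta: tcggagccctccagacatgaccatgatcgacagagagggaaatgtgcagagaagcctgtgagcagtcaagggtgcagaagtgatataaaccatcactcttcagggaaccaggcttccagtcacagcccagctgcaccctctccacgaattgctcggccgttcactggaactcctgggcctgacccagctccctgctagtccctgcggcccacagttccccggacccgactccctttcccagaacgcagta

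The Ltb window holds 1 match, GGAAAGTCCC, which begins 87 bases before the start, and the windows of Tnf and Lta hold none. The table gave windows for 29 of the 41 members; 4 of these (13.8%) held a match in any window, where 8.23% of all 27025 genes in the table did. The others were Tnfrsf8, Tnfrsf25 and Tnfrsf9, a receptor that costimulates T cells. A match describes these letters and no more, and the absence of a match says only that the letters are not in this window. The window of Tnfrsf9 with its overlapping matches GGGGATTTCC and GGGATTTCCC (43 and 42 bases before the second of its RefSeq starts, which lies within the gene as the files give it; chr4:150927749-150927998, plus strand) is shown as an example of overlapping matches.
Tnfrsf9: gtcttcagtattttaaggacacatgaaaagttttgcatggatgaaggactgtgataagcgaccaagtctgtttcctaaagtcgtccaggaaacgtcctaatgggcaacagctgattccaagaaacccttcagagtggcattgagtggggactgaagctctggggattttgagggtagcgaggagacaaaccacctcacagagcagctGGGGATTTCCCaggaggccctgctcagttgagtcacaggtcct

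**Figure D3:**
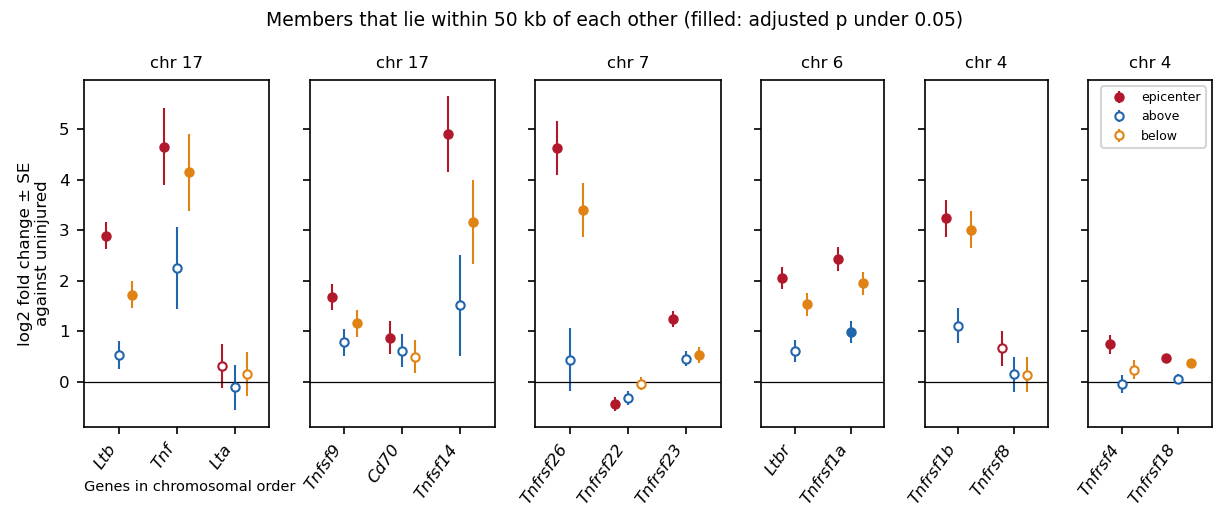
Log2 fold change ± SE against uninjured cord (edgeR, n = 4 libraries a group; filled points, adjusted p under 0.05) for members that lie within 50 kb of each other, with 1 panel per cluster, genes in chromosomal order, and the epicenter, above and below groups from left to right at each gene. Lta stays near 0 beside Tnf and Ltb, and Tnfrsf22 lies below 0 between Tnfrsf26 and Tnfrsf23.

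Both TNF receptors rose. Tnfrsf1a, the widely expressed death-domain receptor of soluble TNF (ENSMUSG00000030341, chr6:125349362-125362484, plus strand), measured 88.0, 80.1, 86.2 and 77.3 CPM at the epicenter, 31.6, 29.1, 30.8 and 30.8 CPM above it and 50.4, 32.7, 99.9 and 55.2 CPM below it, against 15.5, 15.1, 15.2 and 15.6 CPM in uninjured cord. The 4 groups were separate except below 3, which exceeded every epicenter library. Tnfrsf1a rose by 2.43 ± 0.23 at the epicenter, 0.99 ± 0.22 above and 1.96 ± 0.23 below on the log2 scale (edgeR adjusted p = 9.39e-07, 0.0201 and 1.31e-05). The call above was lost without above 1 or without any single uninjured library, at an adjusted p of at most 0.0653, and its adjusted p without below 3 was 3.70e-05. Tnfrsf1b, the TRAF-binding TNF receptor found on immune cells and microglia (ENSMUSG00000028599, chr4:145213463-145246870, minus strand), measured 57.8, 52.1, 69.3 and 45.5 CPM at the epicenter, 13.4, 13.9, 11.8 and 12.5 CPM above it and 36.3, 18.7, 99.4 and 37.8 CPM below it, against 5.69, 6.54, 5.72 and 5.89 CPM in uninjured cord. Each above library stood at about the same raised level, while below 3 alone counted more than every epicenter library. It rose by 3.24 ± 0.37 at the epicenter and 3.01 ± 0.36 below (edgeR adjusted p = 3.86e-06 and 1.80e-05), the value below being 2.37 without below 3. Above, 1.12 ± 0.35 did not pass (edgeR adjusted p = 0.104; 0.000651 without below 3). Ltbr, the receptor of the lymphotoxin heterotrimer and of Tnfsf14, had 37.2 to 42.4 CPM at the epicenter, 12.8 to 17.4 CPM above it and 15.4 to 44.3 CPM below it, against 8.91 to 9.76 CPM in uninjured cord. Ltbr rose by 2.06 ± 0.23 at the epicenter and 1.53 ± 0.22 below.

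Tnfsf14, which binds Ltbr and Tnfrsf14 (ENSMUSG00000005824, chr17:57189492-57194189, minus strand), had the largest fitted fold change of all members at the epicenter, from very low levels. It measured 0.370, 0.263, 0.523 and 0.742 CPM at the epicenter, 0.127, 0.0244, 0 and 0.0342 CPM above it and 0.163, 0.116, 0.155 and 0.128 CPM below it, against 0.0323, 0, 0.0258 and 0 CPM in uninjured cord, the uninjured values resting on 4 counts in all. The epicenter libraries were above all others, and the below libraries above all uninjured ones. Tnfsf14 had enough counts to be tested only through epicenter and below libraries, where it was high. Its log2 fold change was 4.90 ± 0.75 at the epicenter and 3.16 ± 0.84 below (edgeR adjusted p = 6.02e-05 and 0.00832). Its receptor Tnfrsf14 (ENSMUSG00000042333, chr4:154922210-154928563, minus strand), which also engages partners outside the family, measured 6.83, 6.59, 8.03 and 6.13 CPM at the epicenter, 2.05, 1.5, 1.70 and 1.38 CPM above it and 4.07, 2.58, 6.49 and 4.00 CPM below it, against 0.808, 0.924, 0.851 and 1.08 CPM in uninjured cord. No library of any injured segment reached down to the uninjured range. Tnfrsf14 rose by 2.91 ± 0.23 at the epicenter and 2.22 ± 0.23 below (edgeR adjusted p = 3.69e-07 and 5.85e-06). Above, 0.85 ± 0.23 had an adjusted p of 0.0561, and of 0.00445 without below 3.

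**Figure D4:**
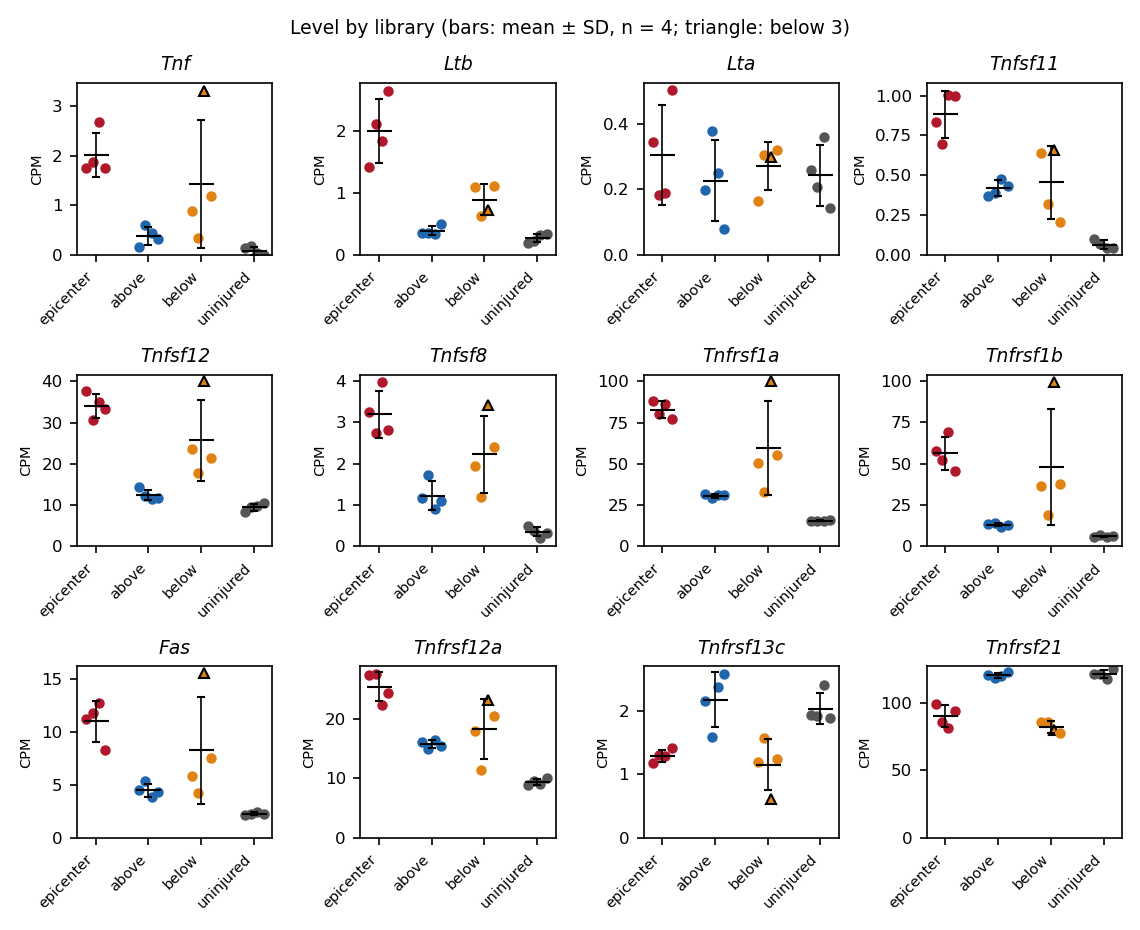
Level (CPM, linear axes from 0) of 12 members in each library, with the epicenter, above, below and uninjured groups from left to right, bars for mean ± SD (n = 4 libraries) and a triangle for below 3. Ltb, Tnfsf11, Tnfsf12, Tnfsf8, Tnfrsf1a, Tnfrsf1b, Fas and Tnfrsf12a are above the uninjured values in all 3 injured segments. Tnfrsf13c and Tnfrsf21 are lower at the epicenter and below, and below 3 tops the epicenter values in Tnf, Tnfsf12, Tnfrsf1a, Tnfrsf1b and Fas.

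Tnfsf11, known as RANKL, the cytokine that drives osteoclast formation (ENSMUSG00000022015, chr14:78277445-78308043, minus strand), was the member with the largest called difference above the injury. It measured 0.834, 0.696, 1.01 and 0.995 CPM at the epicenter, 0.367, 0.390, 0.478 and 0.434 CPM above it and 0.639, 0.316, 0.657 and 0.205 CPM below it, against 0.0970, 0.0690, 0.0387 and 0.0430 CPM in uninjured cord. In all 12 libraries of injured cord it exceeded all 4 uninjured libraries, whose values rest on 17 counts in all. Tnfsf11 rose by 3.82 ± 0.39 at the epicenter, 2.75 ± 0.40 above and 2.87 ± 0.40 below on the log2 scale (edgeR adjusted p = 1.70e-06, 0.00152 and 6.67e-05). It was the only member called above under every alternative that was run. Its signalling receptor Tnfrsf11a (ENSMUSG00000026321, chr1:105780718-105847981, plus strand) measured 15.5, 13.4, 17.2 and 11.8 CPM at the epicenter, 8.01, 7.43, 7.42 and 7.85 CPM above it and 8.65, 6.45, 16.7 and 8.13 CPM below it, against 5.69, 5.85, 5.35 and 5.98 CPM in uninjured cord. Here the epicenter libraries stood clear of the above and uninjured ones, and below 3 was among them. It rose by 1.34 ± 0.22 at the epicenter and 0.81 ± 0.22 below (edgeR adjusted p = 0.000116 and 0.00993), the value below being 0.44 without below 3. Tnfrsf11b, the secreted decoy that captures RANKL (ENSMUSG00000063727, chr15:54250619-54278484, minus strand), measured 7.34, 7.51, 13.7 and 10.0 CPM at the epicenter, 6.17, 4.54, 4.80 and 4.30 CPM above it and 4.90, 3.33, 11.9 and 5.77 CPM below it, against 3.06, 3.34, 2.87 and 3.24 CPM in uninjured cord. The epicenter libraries were above all uninjured ones, and below 2 lay within the uninjured range. It rose by 1.63 ± 0.31 at the epicenter (edgeR adjusted p = 0.000389) and 1.05 ± 0.31 below (adjusted p = 0.0148), or 0.57 below without below 3. Above, 0.66 ± 0.31 for the decoy and 0.43 ± 0.22 for the receptor did not pass (edgeR adjusted p = 0.335 and 0.405).

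Among the costimulatory ligands, Tnfsf8, the ligand of Tnfrsf8 (ENSMUSG00000028362, chr4:63831308-63861347, minus strand), measured 3.25, 2.74, 3.97 and 2.81 CPM at the epicenter, 1.17, 1.72, 0.899 and 1.10 CPM above it and 1.93, 1.18, 3.41 and 2.39 CPM below it, against 0.485, 0.372, 0.206 and 0.330 CPM in uninjured cord. All libraries of injured cord again lay above all uninjured ones. Tnfsf8 rose by 3.20 ± 0.33 at the epicenter, 1.82 ± 0.33 above and 2.68 ± 0.33 below (edgeR adjusted p = 1.76e-06, 0.00602 and 2.04e-05). The receptor Tnfrsf8, a marker of activated lymphocytes (ENSMUSG00000028602, chr4:145267137-145315164, minus strand), measured 0.787, 0.420, 0.885 and 0.520 CPM at the epicenter, 0.283, 0.487, 0.524 and 0.525 CPM above it and 0.301, 0.421, 0.825 and 0.268 CPM below it, against 0.485, 0.428, 0.335 and 0.402 CPM in uninjured cord. Its groups overlapped, and the log2 fold change at the epicenter was 0.67 ± 0.34 (edgeR adjusted p = 0.104; 0.0386 without below 3). Tnfsf9, the ligand of Tnfrsf9 (ENSMUSG00000035678, chr17:57105385-57107757, plus strand), measured 1.53, 1.46, 1.35 and 0.965 CPM at the epicenter, 0.692, 0.902, 0.683 and 0.582 CPM above it and 0.701, 0.621, 1.47 and 0.920 CPM below it, against 0.356, 0.400, 0.425 and 0.473 CPM in uninjured cord. Every library of injured cord was above the uninjured range, but only the epicenter (1.68 ± 0.26, edgeR adjusted p = 6.49e-05) and below (1.16 ± 0.26, adjusted p = 0.00293) passed. Above, Tnfsf9 had 0.78 ± 0.26 (edgeR adjusted p = 0.141; 0.0229 without below 3).

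Tnfrsf9 (ENSMUSG00000028965, chr4:150914562-150946102, plus strand), the gene of the last window printed, measured 0.226, 0.591, 0.818 and 0.327 CPM at the epicenter, 0.113, 0.207, 0.159 and 0.148 CPM above it and 0.276, 0.263, 0.454 and 0.460 CPM below it, against 0.210, 0.0552, 0.0645 and 0.143 CPM in uninjured cord. The epicenter and below libraries were above all uninjured ones, and the above libraries overlapped with those. Tnfrsf9 rose by 2.07 ± 0.46 at the epicenter and 1.63 ± 0.46 below (edgeR adjusted p = 0.00121 and 0.0119). Cd40lg, the T cell ligand of Cd40 (ENSMUSG00000031132, chrX:57212143-57224042, plus strand), was not tested: it had 4, 10, 12 and 3 counts at the epicenter, 0, 0, 2 and 2 counts above and 6, 2, 2 and 1 counts below, against 0 counts in all 4 uninjured libraries. Cd40, carried by antigen-presenting cells (ENSMUSG00000017652, chr2:165055627-165072948, plus strand), measured 1.70, 1.30, 2.39 and 1.08 CPM at the epicenter, 0.989, 0.621, 0.717 and 0.582 CPM above it and 1.10, 0.916, 3.06 and 1.21 CPM below it, against 0.420, 0.621, 0.503 and 0.502 CPM in uninjured cord. Its epicenter and below libraries were above the uninjured range, with below 3 the highest of all. Cd40 rose by 1.66 ± 0.37 at the epicenter and 1.61 ± 0.36 below (edgeR adjusted p = 0.00120 and 0.00305), the value below being 1.07 without below 3.

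The remaining costimulatory members moved less or were barely counted. Tnfsf18, the ligand of Tnfrsf18, had 0.104 to 0.341 CPM at the epicenter, 0 to 0.0342 CPM above it and 0.0626 to 0.335 CPM below it, against 0.0162 to 0.0574 CPM in uninjured cord. These rest on 59 counts at the epicenter and 11 in uninjured cord. Tnfsf18 had enough counts to be tested only through epicenter and below libraries, where it was high. It rose by 2.27 ± 0.69 at the epicenter and 2.19 ± 0.69 below (edgeR adjusted p = 0.0102 and 0.0207). The call below the injury was lost without below 3 (1.73, adjusted p = 0.0693) and without below 4, uninjured 1 or uninjured 3 (adjusted p at most 0.0576). Tnfrsf18 itself, a regulatory T cell receptor, had 8.49 to 10.6 CPM at the epicenter, 6.01 to 7.65 CPM above it and 8.44 to 9.02 CPM below it, against 6.61 to 6.93 CPM in uninjured cord. It rose by 0.47 ± 0.09 at the epicenter and 0.37 ± 0.09 below. Tnfrsf4 had 1.12 to 1.47 CPM at the epicenter, 0.650 to 0.853 CPM above it and 0.767 to 1.24 CPM below it, against 0.683 to 0.922 CPM in uninjured cord. It rose at the epicenter (0.74 ± 0.18, edgeR adjusted p = 0.00241), while its ligand Tnfsf4 had 7, 2, 0 and 4 counts at the epicenter and 1 count in all in the other 12 libraries. Cd70 had 0.119 to 0.268 CPM at the epicenter, 0.148 to 0.182 CPM above it and 0.128 to 0.200 CPM below it, against 0.0485 to 0.152 CPM in uninjured cord. It rose at the epicenter by 0.87 ± 0.33 (edgeR adjusted p = 0.0293). That call was lost without epicenter 2 or 3 or uninjured 1 or 4, where the log2 fold change was down to 0.65 and the adjusted p up to 0.0878. Its receptor Cd27 had 1.72 to 2.37 CPM at the epicenter, 1.34 to 1.75 CPM above it and 1.67 to 4.13 CPM below it, against 1.62 to 2.18 CPM in uninjured cord. Its log2 fold change was 0.23 ± 0.24 at the epicenter (edgeR adjusted p = 0.407). Tnfsf15 had 5, 8, 12 and 8 counts at the epicenter, 2, 2, 6 and 2 above and 19, 2, 5 and 4 below, against 1, 0, 2 and 4 in uninjured cord, and was not tested. Its death-domain receptor Tnfrsf25 had 3.33 to 4.74 CPM at the epicenter, 1.45 to 2.37 CPM above it and 2.30 to 5.69 CPM below it, against 1.09 to 1.75 CPM in uninjured cord. It rose by 1.51 ± 0.25 at the epicenter and 1.37 ± 0.25 below. The 10 T and NK cell markers summed to 5.46 to 7.57 at the epicenter, 1.13 to 1.55 above, 2.01 to 4.90 below and 0.437 to 0.938 in uninjured cord (CPM), with Cd3g at 0 in all 4 uninjured libraries. Of them, 9, 2 and 9 were called higher at the epicenter, above and below, and their part in these members' values was not tested.

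Of the pair Fasl and Fas, the death ligand of cytotoxic lymphocytes and its receptor, the receptor alone was called with all libraries. Fasl (ENSMUSG00000000817, chr1:161780689-161788495, minus strand) measured 0.286, 0.263, 0.442 and 0.341 CPM at the epicenter, 0.184, 0.317, 0.159 and 0.160 CPM above it and 0.188, 0.263, 0.203 and 0.307 CPM below it, against 0.162, 0.179, 0.155 and 0.359 CPM in uninjured cord. These ranges overlapped between all groups. Its log2 fold change at the epicenter was 0.64 ± 0.32 (edgeR adjusted p = 0.1), and without uninjured 4, the highest of its group, it was 1.00 with an adjusted p of 0.0144. Fas (ENSMUSG00000024778, chr19:34290659-34327770, plus strand) measured 11.2, 11.7, 12.8 and 8.25 CPM at the epicenter, 4.47, 5.34, 3.81 and 4.28 CPM above it and 5.79, 4.19, 15.5 and 7.49 CPM below it, against 2.12, 2.28, 2.46 and 2.22 CPM in uninjured cord. Every library of injured cord was above every uninjured one, and below 3 exceeded the epicenter. Fas rose by 2.27 ± 0.31 at the epicenter and 1.86 ± 0.30 below (edgeR adjusted p = 1.91e-05 and 0.000251). Above, Fas had 0.98 ± 0.30 (edgeR adjusted p = 0.102; 0.00134 without below 3).

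The death ligand Tnfsf10, known as TRAIL (ENSMUSG00000039304, chr3:27317028-27342427, plus strand), measured 8.34, 7.34, 10.2 and 7.85 CPM at the epicenter, 5.52, 4.56, 4.94 and 3.97 CPM above it and 7.88, 7.81, 12.3 and 7.87 CPM below it, against 4.91, 5.28, 4.16 and 4.66 CPM in uninjured cord. Epicenter and below libraries were above the uninjured range and the above libraries lay across it. Tnfsf10 rose by 0.83 ± 0.16 at the epicenter and 0.91 ± 0.16 below (edgeR adjusted p = 0.000435 and 0.000463), the smallest fold change among the 11 ligands called there. Tnfrsf10b, the mouse death receptor for TRAIL (ENSMUSG00000022074, chr14:69767472-69784403, plus strand), measured 3.27, 3.09, 3.55 and 3.46 CPM at the epicenter, 1.53, 1.4, 1.80 and 1.51 CPM above it and 2.15, 1.56, 3.20 and 1.84 CPM below it, against 1.24, 1.32, 1.51 and 1.56 CPM in uninjured cord. Its epicenter libraries stood clear of the above and uninjured ones, and those overlapped. It rose by 1.24 ± 0.18 at the epicenter and 0.63 ± 0.18 below (edgeR adjusted p = 4.39e-05 and 0.0142), or 0.39 below without below 3.

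A cluster of 3 receptor genes on chromosome 7 held members that differed in direction. Tnfrsf26, a mouse receptor (ENSMUSG00000045362, chr7:143607685-143627845, minus strand), measured 2.44, 1.97, 3.34 and 2.60 CPM at the epicenter, 0.113, 0.219, 0.114 and 0.114 CPM above it and 0.839, 0.284, 2.33 and 0.946 CPM below it, against 0.113, 0.0690, 0.103 and 0.129 CPM in uninjured cord. The epicenter and below libraries lay above all uninjured ones, and 3 of the 4 above libraries lay within the uninjured range. It rose by 4.63 ± 0.53 at the epicenter and 3.39 ± 0.53 below (edgeR adjusted p = 4.34e-06 and 0.000176), the value below being 2.71 without below 3. Tnfrsf22, a mouse decoy receptor for TRAIL (ENSMUSG00000010751, chr7:143634806-143649661, minus strand) 6.96 kb away, measured 16.1, 13.7, 21.8 and 15.3 CPM at the epicenter, 14.4, 17.8, 20.9 and 19.8 CPM above it and 19.3, 22.3, 24.2 and 23.3 CPM below it, against 21.8, 23.1, 24.6 and 21.5 CPM in uninjured cord. Of the epicenter libraries, 3 lay below the uninjured range and epicenter 3 within it, while all above libraries lay below it. Tnfrsf22 fell, with a log2 fold change of -0.44 ± 0.14 at the epicenter (edgeR adjusted p = 0.0119), with -0.03 ± 0.14 below (adjusted p = 0.881). Above, its log2 fold change was -0.32 and was not called. Tnfrsf23, the other TRAIL decoy and 16.1 kb further, had 4.87 to 5.50 CPM at the epicenter, 2.61 to 3.38 CPM above it and 2.48 to 4.25 CPM below it, against 1.85 to 2.51 CPM in uninjured cord. It rose by 1.24 ± 0.15 at the epicenter and 0.53 ± 0.15 below (edgeR adjusted p = 8.70e-06 and 0.0135). These 3 genes are related in sequence, and how reads matching several places were counted is not given in the sources used here, so their split is uncertain.

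Tnfrsf21, a death-domain receptor of neurons and oligodendrocyte lineage cells (ENSMUSG00000023915, chr17:43016555-43089188, plus strand), was the most abundant member per length in uninjured cord and 1 of 3 that fell. It measured 99.6, 86.1, 81.2 and 94.5 CPM at the epicenter, 121, 119, 120.1 and 123 CPM above it and 86.3, 85.7, 80.1 and 77.6 CPM below it, against 122, 122, 118 and 125 CPM in uninjured cord. All 8 epicenter and below libraries lay under all 8 above and uninjured libraries. Tnfrsf21 fell, with a log2 fold change of -0.43 ± 0.07 at the epicenter and of -0.56 ± 0.07 below (edgeR adjusted p = 7.08e-05 and 1.73e-05), with -0.01 ± 0.07 above. Summed markers of neurons, given earlier, and of 7 oligodendrocyte genes (14589 to 18324 at the epicenter, 20903 to 21899 above, 13392 to 17442 below and 19169 to 19821 in uninjured cord, CPM) were also lower at the epicenter and below, with 5 and 6 of the 7 called lower, and their part in the fall of Tnfrsf21 was not tested.

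The TWEAK pair is a ligand and a receptor that were both well detected in uninjured cord. Tnfsf12, known as TWEAK (ENSMUSG00000097328, chr11:69686250-69695849, minus strand), measured 37.6, 30.7, 35.0 and 33.2 CPM at the epicenter, 14.3, 12.1, 11.4 and 11.8 CPM above it and 23.5, 17.9, 40.1 and 21.4 CPM below it, against 8.31, 9.57, 9.67 and 10.4 CPM in uninjured cord. The groups were separate, except that below 3 exceeded every epicenter library. Tnfsf12 rose by 1.85 ± 0.19 at the epicenter and 1.44 ± 0.19 below (edgeR adjusted p = 1.81e-06 and 3.77e-05). Tnfrsf12a, its small TRAF-binding receptor, induced in many injured tissues (ENSMUSG00000023905, chr17:23675447-23677449, minus strand), measured 27.5, 27.7, 22.5 and 24.5 CPM at the epicenter, 16.2, 14.9, 16.4 and 15.4 CPM above it and 18.1, 11.4, 23.3 and 20.6 CPM below it, against 8.91, 9.59, 9.02 and 10.0 CPM in uninjured cord. No library of injured cord fell within the uninjured range. Tnfrsf12a rose by 1.44 ± 0.16 at the epicenter, 0.75 ± 0.16 above and 0.97 ± 0.16 below (edgeR adjusted p = 3.00e-06, 0.0149 and 0.000247). The call above was lost without uninjured 1 or uninjured 3, at an adjusted p of at most 0.0569, and the adjusted p without below 3 was 0.00161.

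Tnfsf12 and its neighbour Tnfsf13, known as APRIL, cannot be read as separate genes with certainty. Tnfsf12 shares 48.3% of its exonic bases, and Tnfsf13 60.0%, with the read-through gene model Tnfsf12Tnfsf13 on the same strand (GENCODE M21, GRCm38), and the antisense model Tnfsf13os shares 22.8% of its own with them on the opposite strand. The library kit does not mark the strand, so reads of such partners cannot be told apart. All 4 rows rose at the epicenter and below: Tnfsf13 had 18.0 ± 1.62 CPM at the epicenter, 4.34 ± 1.79 CPM above it and 12.0 ± 5.06 CPM below it, against 2.92 ± 0.259 CPM in uninjured cord (mean ± SD, n = 4 each). It rose by 2.62 ± 0.28 at the epicenter and 2.04 ± 0.28 below. The read-through model rose by 2.07 ± 0.21 and 1.65 ± 0.21, and the antisense model by 2.32 ± 0.22 and 1.76 ± 0.22, at the epicenter and below (edgeR adjusted p = 1.66e-06, 2.78e-05, 1.04e-06 and 2.40e-05). Smaller overlaps touch Tnfrsf18 (27.2% of its exonic bases, opposite strand), Tnfsf9 (14.9%, opposite), Cd27 (5.54%, same), Tnfrsf23 (4.14%, opposite) and Tnfrsf26 (3.33%, opposite).

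The B cell survival ligand BAFF was not called, while 1 of its receptors rose and another fell. Tnfsf13b, the gene of BAFF (ENSMUSG00000031497, chr8:10006843-10035441, plus strand), measured 4.40, 3.70, 3.49 and 4.13 CPM at the epicenter, 4.04, 3.91, 4.49 and 4.56 CPM above it and 4.21, 4.13, 3.08 and 3.18 CPM below it, against 5.19, 4.39, 4.02 and 4.13 CPM in uninjured cord. All groups overlapped, with a log2 fold change of -0.17 ± 0.13 at the epicenter (edgeR adjusted p = 0.258). The file's length for this row, 930 bases, is far under the 6868 exonic bases of GENCODE M21. Tnfrsf13b, a receptor shared by BAFF and APRIL (ENSMUSG00000010142, chr11:61126755-61149372, plus strand), measured 4.98, 4.67, 6.23 and 5.17 CPM at the epicenter, 2.76, 1.79, 1.96 and 2.08 CPM above it and 3.33, 1.98, 5.50 and 3.00 CPM below it, against 0.808, 1.10, 1.20 and 0.961 CPM in uninjured cord. Every library of injured cord was above the uninjured range. Tnfrsf13b rose by 2.36 ± 0.26 at the epicenter, 1.07 ± 0.25 above and 1.76 ± 0.25 below (edgeR adjusted p = 2.71e-06, 0.0281 and 8.92e-05). The call above was lost without above 1, above 4 or any single uninjured library, at an adjusted p of at most 0.11, and without below 3 its adjusted p was 0.00135.

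Tnfrsf13c, the receptor through which mature B cells read BAFF (ENSMUSG00000068105, chr15:82221744-82224339, minus strand), measured 1.18, 1.30, 1.29 and 1.41 CPM at the epicenter, 2.16, 1.58, 2.38 and 2.59 CPM above it and 1.19, 1.58, 0.609 and 1.24 CPM below it, against 1.94, 1.92, 2.41 and 1.89 CPM in uninjured cord. All epicenter and below libraries lay under all uninjured ones, and the above libraries lay on both sides of the uninjured values. Tnfrsf13c fell, with a log2 fold change of -0.66 ± 0.23 at the epicenter and of -0.82 ± 0.23 below (edgeR adjusted p = 0.0196 and 0.0105). At the epicenter the call was lost without epicenter 1 or uninjured 3, where the log2 fold change was at its smallest -0.57 and the adjusted p at most 0.0605. The 9 B and plasma cell markers summed to 56.3 to 79.6 at the epicenter, 39.4 to 45.9 above, 35.8 to 58.4 below and 41.1 to 48.4 in uninjured cord (CPM). Of these, 7, 1 and 6 were called higher at the epicenter, above and below, in the direction opposite to Tnfrsf13c, and their part in its values was not tested.

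Between members, levels were compared per kilobase of the length given in the file, as CPM per kb. In uninjured cord Tnfrsf21 came first with 33.6 ± 0.800, followed by Tnfrsf12a with 9.74 ± 0.526, Tnfsf12 with 6.26 ± 0.565 and Tnfrsf1a with 5.93 ± 0.0917 CPM per kb (mean ± SD, n = 4). At the epicenter Tnfrsf1a came first with 32.0 ± 1.94, followed by Tnfrsf12a with 26.5 ± 2.60, Tnfrsf21 with 24.9 ± 2.28 and Tnfsf12 with 22.5 ± 1.92 CPM per kb. The spreads of Tnfsf12 and Tnfrsf1a in uninjured cord overlapped, as did those of Tnfrsf12a, Tnfrsf21 and Tnfsf12 between neighbours at the epicenter, so these orders are not resolved. The file gives 963 bases for Tnfrsf12a where GENCODE M21 has 1932 exonic bases. With M21 lengths for every member, Tnfrsf12a had 13.2 CPM per kb and rank 7 at the epicenter, and 4.85 CPM per kb and rank 5 in uninjured cord, and Tnfrsf1a at the epicenter and Tnfrsf21 in uninjured cord were again first. Most ligands were scarce on this scale: at the epicenter Tnf stood at 1.23 ± 0.271, Ltb at 1.32 ± 0.343 and Tnfsf14 at 0.255 ± 0.112 CPM per kb.

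The epicenter was also set against the other segments of the injured cord. Against the segment above, 29 of 38 members were called higher and 2 lower at the epicenter, with 28.3%, 24.4% and 52.7% of all rows higher, lower and in either direction. The members' median log2 fold change was 1.13. Tnfrsf26 differed most, by 4.19 ± 0.50 (edgeR adjusted p = 2.45e-05), followed by Tnfsf14 with 3.39 ± 0.62 (4.49 without above 1) and Tnfsf18 with 3.09 ± 0.74. Tnfsf11, already raised above the injury, differed by 1.07 ± 0.31 (edgeR adjusted p = 0.00918). The members lower at the epicenter than above were Tnfrsf21 (-0.42 ± 0.07) and Tnfrsf13c (-0.75 ± 0.22). Leaving out single libraries ended 1 of the 31 calls, that of Tnfrsf11b without epicenter 3 (0.74, edgeR adjusted p = 0.0593).

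The segments on either side of the injury differed from each other. Above against below, 2 members were called higher and 18 lower, with 9.11%, 15.2% and 24.4% of all rows higher, lower and in either direction, and a members' median log2 fold change of -0.78. Tnfsf18 (-3.01 ± 0.74), Tnfrsf26 (-2.95 ± 0.50) and Tnfrsf1b (-1.89 ± 0.35) were lower above (edgeR adjusted p = 0.00988, 0.00105 and 0.00174). Without below 3 the values of Tnfrsf26 and Tnfrsf1b were -2.27 and -1.26. Tnfrsf13c (0.91 ± 0.22) and Tnfrsf21 (0.55 ± 0.07) were higher above. Tnfsf11 stood at 0.417 ± 0.0491 CPM above and 0.454 ± 0.229 CPM below (mean ± SD, n = 4 each), a log2 difference of -0.12 ± 0.31 (edgeR adjusted p = 0.805). Several of these calls turned on single libraries. Without below 3 the calls of Tnf, Fas, Cd40 and Tnfsf8 in this comparison were lost, with log2 values of -1.05, -0.38, -0.57 and -0.58 (edgeR adjusted p = 0.147, 0.141, 0.126 and 0.131). That of Tnf was also lost without above 1, 3 or 4 or below 4, and that of Cd40 without above 2, 3 or 4. The call of Fas was also lost without epicenter 1, below 4, or any single above or uninjured library. That of Tnfsf8 was also lost without epicenter 1, 2 or 4, above 1, 3 or 4, below 1 or 4, or uninjured 2 or 4. Over these omissions other than below 3, the edgeR adjusted p was at most 0.116. The call of Tnfrsf18 was lost without above 1 or above 3 (edgeR adjusted p = 0.0570 and 0.0785).

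How many members were called between the epicenter and the segment below depended on single libraries, below 3 most of all. With all libraries, 8 of 38 members were called higher and 1 lower at the epicenter, with 11.0%, 10.2% and 21.3% of all rows higher, lower and in either direction, and a members' median of 0.48. The 8 higher members were Tnfsf14 (1.74 ± 0.53), Tnfrsf26 (1.24 ± 0.41), Ltb (1.17 ± 0.24), Tnfsf11 (0.96 ± 0.31), Tnfrsf23 (0.71 ± 0.15), Tnfrsf14 (0.69 ± 0.21), Tnfrsf10b (0.61 ± 0.18) and Tnfrsf12a (0.48 ± 0.16), and Tnfrsf22 (-0.41 ± 0.14) was the lower one (log2 fold change ± SE, edgeR). All 9 calls held without below 3, but none held under every alternative. Below 3 lay above all 4 epicenter libraries in 12 members (and in 27.6% of all rows), among them in 17 and under them in 9. The other 3 below libraries all lay under the epicenter libraries in 22 members and in 22.6% of all rows. Without below 3, calls over all rows rose to 46.5%, and 24 members were called, 23 of them higher at the epicenter, Tnf (1.34, edgeR adjusted p = 0.0304), Tnfrsf1a (0.85), Fas (0.92), Tnfrsf1b (0.86) and Tnfrsf26 (1.92) included. Without epicenter 4 or below 4 the count was 2 (9.95% and 12.4% of all rows), and without epicenter 1 or below 2 it was 3 (12.7% and 12.2%). Without below 1 it was 4 (13.2%) and without epicenter 2 it was 5 (12.7%). The member counts thus moved with the counts over all rows. Deviations from group means correlated at 0.21 to 0.46 in same-numbered epicenter and below libraries. Over all pairs of groups, however, own numbers matched best in only 13 of 48 checks, so the pairing is an assumption. With the replicate number as a block, 10 members (and 20% of all rows) were called in the fit of all libraries, Tnfrsf13b added (0.66, edgeR adjusted p = 0.0476). With only these 8 libraries and the block, 0 members were called by edgeR, with 15 at an unadjusted p under 0.05 and 0.244% of all rows called. Below 3 also held the lowest neuronal and highest phagocyte sum of all libraries, and whether that accounts for its place among the members was not tested.

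**Figure D5:**
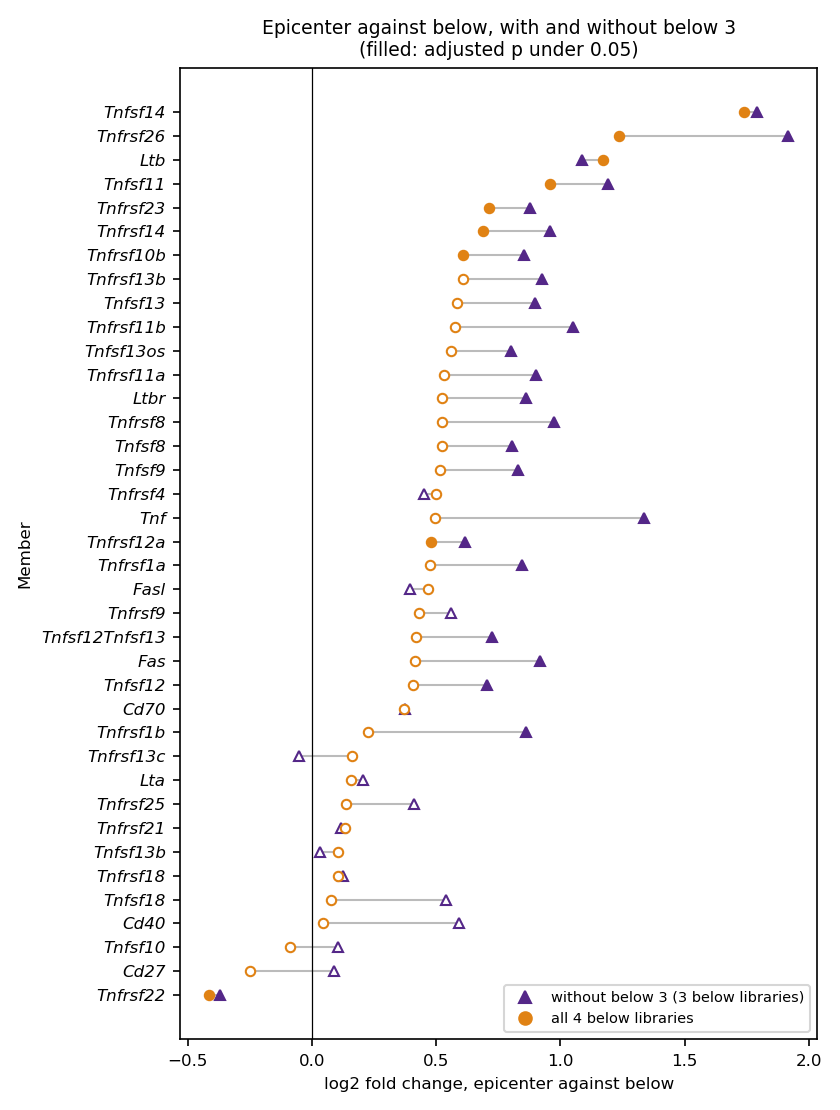
Log2 fold change of the epicenter against the segment below for each of the 38 tested members (edgeR), with triangles for the fit without below 3 (3 below libraries) and circles for all 4 below libraries, filled at an adjusted p under 0.05. Tnf moves from 0.50 with all libraries to 1.34 without below 3, and filled symbols number 9 with below 3 and 24 without it.

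The count of members called above the injury also turned on single libraries. It was 5 with all libraries, 16 without below 3 (9.71% of all rows) and 9 without below 2 (5.29%). It was 3 without above 1, uninjured 2 or uninjured 4 (1.96% to 2.01% of all rows) and 2 without uninjured 1 or uninjured 3 (1.7% and 1.74%). The 11 members gained without below 3 were Tnf, Tnfsf12, Tnfsf9, the Tnfsf12Tnfsf13 model, Fas, Tnfrsf1b, Ltbr, Tnfrsf11a, Tnfrsf14, Tnfrsf11b and Tnfrsf23, all higher above than in uninjured cord.

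Other genes of the pathway are given by list, each to be read against the shares of all rows called higher and lower, which were 31.9% and 29.3% at the epicenter, 3.09% and 0.446% above, and 23.6% and 15.7% below. Of 18 adaptors and death signaling genes 12 were called higher and 1 lower at the epicenter, 0 and 0 above, and 10 and 1 below. Casp8, the initiator caspase of death receptors, rose by 2.79 ± 0.32 at the epicenter, and Birc3, an inhibitor of apoptosis recruited to TNF receptors, by 2.29 ± 0.23 (log2 fold change ± SE, edgeR). Of 19 genes of NF-kappaB and its regulators 12 were higher and 2 lower at the epicenter, 2 and 0 above, and 12 and 1 below. Nfkb2, the precursor subunit of the noncanonical pathway, rose by 2.27 ± 0.18 and Tnfaip3, a brake on TNF signalling, by 1.94 ± 0.28 at the epicenter. All 3 necroptosis genes were higher at the epicenter and below and 1 of them above, with Zbp1, a nucleic acid sensor, at 4.08 ± 0.46 and Ripk3, the kinase that licenses necroptosis, at 3.47 ± 0.38 at the epicenter.

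All 6 sheddases and their regulators were called higher at the epicenter and below, and 1 above. Rhbdf2, which brings the TNF-releasing protease Adam17 to the cell surface, rose by 3.40 ± 0.30 and Rhbdf1 by 1.80 ± 0.16 at the epicenter (log2 fold change ± SE, edgeR). Of 13 tested genes known to be induced by TNF, 11 were higher and 1 lower at the epicenter and again below, and 4 were higher above, while Ccl20 was too scarce to test. Ccl2, a monocyte-attracting chemokine, rose by 6.26 ± 0.54 and Cxcl10, a T cell-attracting chemokine, by 4.64 ± 0.43 at the epicenter. A list of 6 genes outside the naming rule held superfamily members and the adaptor Edaradd. Of these, 4 were higher and 1 lower at the epicenter, 0 and 0 above, and 5 and 0 below. Ngfr, the neurotrophin receptor with a death domain, which Schwann cells express, rose by 2.95 ± 0.36 and Edaradd, an adaptor of the ectodysplasin receptor, by 1.93 ± 0.41 at the epicenter. Summed Schwann cell markers were 1235 to 1853 at the epicenter, 68.5 to 337 above, 1419 to 2207 below and 62.2 to 123 in uninjured cord (CPM), with 6, 1 and 6 of 6 called higher, and their part in the value of Ngfr was not tested.

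Markers of the other cell types that such tissue can hold moved with the same groups. Homeostatic microglia markers were called higher at the epicenter, above and below in 5, 6 and 5 of 8 genes. They summed to 941 to 1398 at the epicenter, 617 to 657 above, 595 to 1621 below and 319 to 328 in uninjured cord (CPM). Neutrophil markers were higher in 8, 5 and 7 of 8. They summed to 54.9 to 416 at the epicenter, 6.34 to 23.8 above, 19.0 to 40.0 below and 1.38 to 1.82 in uninjured cord, with Ly6g or Elane at 0 in 3 uninjured libraries. Fibroblast markers were higher in 6, 1 and 6 of 6, astrocyte markers in 3, 1 and 5 of 6, and endothelial markers in 4, 0 and 5 of 7, with 0 lower in each. The fibroblast sum was 2478 to 3667 at the epicenter, 69.0 to 323 above, 414 to 1718 below and 46.5 to 64.1 in uninjured cord. The astrocyte sum was 5655 to 8029 at the epicenter, 4432 to 5226 above, 3309 to 10881 below and 2439 to 2476 in uninjured cord. The endothelial sum was 213 to 284 at the epicenter, 155 to 192 above, 217 to 415 below and 158 to 191 in uninjured cord (all in CPM). The part of these cell types in the members' values was not tested.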

How the data were processed

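RNA was sequenced from 16 libraries, 4 for each of the epicenter, above, below and uninjured groups. Libraries were made from total RNA with a TruSeq v2 kit, which does not mark strand, per the labels' protocols. The authors deposited raw counts per gene with gene coordinates and lengths; TopHat2 2.0.12, Subread 1.4.4, edgeR and build mm10 are named in the submitters' processing notes, with no counting settings stated there. Rows were kept by filterByExpr over the groups (23769 of 43346). A row scarce in uninjured cord could thus be kept through groups where it was high, as Tnfsf14 and Tnfsf18 were. The counts of called members include such rows. All 16 libraries entered 1 edgeR 4.0.16 quasi-likelihood fit (R 4.3.3) with TMM scaling. Differences were called at a Benjamini-Hochberg adjusted p under 0.05 over all tested rows, and SE is the log2 fold change divided by the square root of F. CPM were computed with TMM-scaled library sizes. The fit was also run on simulated counts with the same spread in every group and few changed genes. That run could not test unequal spread such as that from below 3, nor changes in most rows.

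Alternatives were other scalings, no filter, DESeq2 1.42.0, limma-voom 3.58.1, only the libraries compared, a replicate block and omission of libraries. Deviations from group means, over the 10000 most abundant rows, correlated over 0.1 in all 4 same-numbered pairs of epicenter and below libraries (0.32, 0.43, 0.46 and 0.21). The numbers were therefore taken to pair these 2 groups, from the data and not from the labels. Over all pairs of groups, however, a library correlated best with its own number in only 13 of 48 checks. Random matching among 4 libraries would give about as many, so the pairing is an assumption. Values per library are given for fixed ligand and receptor pairs, Tnfrsf21, the 3 called ligands and 3 called receptors with the largest change in each comparison with uninjured cord, members called lower, and members called above; for the others, ranges or counts. Of pathway lists, the 2 genes with the largest called change at the epicenter are named. Members and lists were chosen with earlier results of these data known. For 12 members no promoter window was matched. Exon overlaps are from GENCODE M21. Of the B and plasma cell markers, Jchain was not found.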

Additional observations from a re-analysis of the deposited data

Results flagged for a closer look

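In 15 of 152 sets of 4 libraries (9.87%), 1 library stood apart from the other 3 by more than Dixon's critical value allows, where chance gives about 1 in 20. From the epicenter this was Tnf in library 3, at 2.67 CPM. From above these were Ltb in library 4 (0.502 CPM), Fasl in library 2 (0.317 CPM), Tnfrsf26 in library 2 (0.219 CPM), and 3 in library 1, Tnfsf13 (7.01 CPM), the Tnfsf12Tnfsf13 model (16.0 CPM) and Tnfrsf8 (0.283 CPM, the lowest of its group). From below these were Tnfsf10 (12.3 CPM) and Cd40 (3.06 CPM) in library 3, Tnfrsf4 in library 2 (1.24 CPM) and Lta in library 1 (0.163 CPM, the lowest of its group). From uninjured cord these were Fasl (0.359 CPM) and Tnfsf13os (1.63 CPM) in library 4, Tnfrsf18 in library 2 (6.93 CPM) and Tnfrsf13c in library 3 (2.41 CPM).

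For 4 members the fold changes of 2 injured segments against uninjured cord had opposite signs and the segments themselves were called different (edgeR, adjusted p under 0.05). Between the epicenter and the segment above the log2 differences were 3.09 for Tnfsf18, 0.83 for Tnfsf10, 0.78 for Tnfrsf4 and -0.75 for Tnfrsf13c. Between the segments above and below they were -3.01 for Tnfsf18, -0.92 for Tnfsf10 and 0.91 for Tnfrsf13c. The changes of these members above the injury against uninjured cord were themselves not called.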

How the results depend on the processing

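Counts of called members were 33 at the epicenter and 30 below, each against uninjured cord (61.3% and 39.3% of all rows). They were 31 at the epicenter against above and 32 in the test over 4 groups (52.7% and 61.5%). These counts stayed within 1.5 times their value under every alternative run. With single libraries left out they were 32 to 34, 29 to 31, 30 to 32 and 31 to 33. For the first 3 of these, 56.4% to 66.3%, 31.3% to 46.7% and 45.3% to 60% of all rows were then called. With only the libraries compared, the 30 calls below against uninjured cord became 24 (27.7% of all rows), with 6 calls lost. Above against uninjured cord, 5 calls (3.54% of all rows) became 9 with DESeq2 (6.25%), 1 with limma-voom (1.13%) and 16 with only the libraries compared (15.3%). They became 11 without above 1 and below 3 together (6.97%), and 2 to 16 when single libraries were left out (1.7% to 9.71%). For the epicenter against below, 9 calls (21.3% of all rows) became 15 with limma-voom (22.6%) and 25 without above 1 and below 3 together (47.5%). They became 2 to 24 when single libraries were left out (9.95% to 46.5%). With only the libraries compared they became 0 (edgeR, 10 at an unadjusted p under 0.05, where 0.13% of all rows were called). They were again 0 when the replicate block was added to those libraries, an alternative chosen after seeing the data (edgeR, 15 at an unadjusted p under 0.05, 0.244% of all rows). Above against below, 20 calls (24.4% of all rows) became 10 with only the libraries compared (6.81%), and 15 to 26 when single libraries were left out. The lowest of these, 15 without above 3, came with 16.7% of all rows. No fold change of a called member reversed. Library totals in place of TMM moved the median of all rows by 0.14 for below against uninjured cord. For the comparisons other than epicenter against below, at least 1 same-numbered pair had deviations correlated under 0.1, and replicate numbers were not taken to pair libraries there; 3 of 4 pairs of epicenter and above correlated at 0.20 to 0.47 and the fourth at -0.29, and those with uninjured cord lay between -0.44 and 0.22. With the replicate block, the calls were 33, 5 and 30 at the epicenter, above and below against uninjured cord (62.1%, 3.4% and 40.7% of all rows). They were 31 and 10 for the epicenter against above and below (53.6% and 20%), 19 above against below (25.9%) and 33 over the 4 groups. Depth limits statements on Cd40lg, Tnfsf4 and Tnfsf15, which were near the floor of 3 counts a library. It also limits the fold changes against uninjured cord of Tnf, Tnfsf14, Tnfsf11 and Tnfsf18, with 22, 4, 17 and 11 uninjured counts in all.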
